A study of Mus musculus with 15 samples.

Results

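The Hox genes encode homeodomain transcription factors and lie in 4 clusters, HoxA, HoxB, HoxC and HoxD, within which all genes are transcribed in the same direction. They were chosen by name: 38 of the 39 genes of the clusters were examined, out of 22209 protein-coding genes, and the remaining gene was not analysed here. Around each cluster, peaks were taken from its first to its last listed Hox gene (inside) and in the 100 kb on either side (the flanks). A gene was said to carry a peak when one lay within 2000 bp of any of its transcription start sites (TSS). These windows held 38 of 35345 CTCF peaks, 30 of 38430 and 41 of 48462 Rad21 peaks (replicates 1 and 2), and 10 of 38700 and 8 of 24765 H3K27ac peaks.

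The peaks came from ChIP-seq of primary CD69-CD4+CD8+ thymocytes, immature T cells before selection, from the thymus of wild type C57BL/6 mice. Immunoprecipitation was against CTCF (1 library), Rad21 (2 libraries) and H3K27ac (2 libraries). CTCF is a DNA-binding zinc finger protein at which cohesin is held, Rad21 is a subunit of the cohesin ring, and H3K27ac marks active promoters and enhancers. The series has 15 samples; its Hi-C libraries (CTCF-/-, CTCF-/- Rad21-/- and wild type) and its inputs were not analysed here, so no genotypes are compared.

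As background, the order of the genes in a cluster matches the order in which they are used along the body axis. Paralogue groups run from 1, used nearest the head, to 13, used nearest the tail, and genes of a group in different clusters are the most similar. Outside their domains of use Hox clusters are typically kept silent by Polycomb group proteins, and CTCF sites inside the clusters are known to separate silent from active stretches in embryonic and stem cells. In blood formation, HoxA and HoxB genes are known for their use in stem and progenitor cells, and most are switched off as cells mature.

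Peak lists carry no read counts, so sequencing depth is unknown, and a gene without a peak is only a gene without a called peak. Heights are fold enrichments over local background as the authors' peak caller gave them, and they are compared within a list. A region was called shared when merged peaks of both replicates formed it. The labels do not say whether the replicates came from separate animals. No test between groups of samples is possible with 1 genotype, and most counts are set beside the same count over all genes or all peaks. Exact (Clopper-Pearson) 95% binomial intervals cover counting error only, and neighbouring Hox genes that share a peak are not independent. As a check of the labelled cell type, all 10 thymocyte marker genes, among them Cd4, Cd8a, Cd3e and Rag1, carried a shared H3K27ac region. The share of all protein-coding genes was 41.6%, and among marker genes of other thymic cells 2 of 14 had one. Among those 2 was Pecam1, an endothelial and leukocyte gene named after its values were seen, with folds of 11.1 and 2.76 in replicates 1 and 2. The bearing of other cells on the Hox results was not tested.

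The clusters were nearly free of H3K27ac but held CTCF and cohesin at several places between genes. Inside the clusters, which span 485 kb together, there was 1 shared H3K27ac region, against 15 shared Rad21 regions and 24 CTCF peaks. All 15 Rad21 regions lay on a CTCF peak and 0 on a shared H3K27ac region (interval 0 to 21.8%). The sites most relevant to this pattern are shown first. They are the best match to the core CTCF consensus within 50 bp of the summit, for the 2 highest CTCF peaks inside each cluster and for every CTCF peak with a shared Rad21 region at a Hox promoter. Each sequence is read from build mm9 (NCBIM37) on the strand of the match, 5′ to 3′, over 27 bases, and capitals mark the 13 matched bases.
HoxA, between Hoxa6 and Hoxa7, chr6:52161716-52161742, plus strand, 3 mismatches: gcgacggCCACAGCGTGGCAgcagcga
HoxA, Hoxa7 promoter, chr6:52171800-52171826, minus strand, 1 mismatch: gaaaattCCAGGAGATGGCAgtgtggc
HoxA, Hoxa10 promoter, chr6:52190532-52190558, minus strand, 1 mismatch: gcagccgCCACGAGATGGCGcactccc
HoxB, between Hoxb13 and Hoxb9 in Gm53, chr11:96123059-96123085, minus strand, 2 mismatches: cgaccgaCCTCTAGGCGGCGccctggc
HoxB, Hoxb5 promoter, chr11:96164552-96164578, plus strand, 2 mismatches: tcaatcgCCGGGAGGTGGCGcgctctg
HoxC, Hoxc10 promoter, chr15:102796996-102797022, plus strand, 2 mismatches: gaggcagCTGCTAGGTGGCGctgttac
HoxC, between Hoxc9 and Hoxc8, chr15:102818017-102818043, plus strand, 3 mismatches: caagtgaACGCGAGGTGGCGctgttgc
HoxC, Hoxc5 promoter, chr15:102844126-102844152, plus strand, 2 mismatches: cgagtcgGCACCAGGTGTCGctgtgag
HoxD, upstream of Hoxd12, chr2:74511227-74511253, minus strand, 1 mismatch: caaacgcCCAGGAGATGGCGagcgtgc
HoxD, between Hoxd9 and Hoxd8, chr2:74540445-74540471, plus strand, 1 mismatch: catttggCCACTAGAGAGCGctgttgc
HoxD, between Hoxd8 and Hoxd4, chr2:74553971-74553997, plus strand, 2 mismatches: gctttgtCCAGGAGGAGGCGctgtagg
Each site was picked as the best match to the core consensus. The GGCG or GGCA that ends most matches may therefore come from the search. None of the 11 matches the core consensus without a mismatch. The highest CTCF peak of the HoxA cluster and that of the HoxC cluster had no match with at most 2 mismatches.

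Acetylation was the mark in which the Hox genes stood farthest from other genes. A shared H3K27ac region lay at 1 of the 38 Hox promoters (2.63%, interval 0.0666 to 13.8), where 41.6% of all protein-coding genes had one. By library the counts were 2 in replicate 1 and 1 in replicate 2, beside 44.8% and 43.1% of all genes. The only shared region was at Hoxa4, a HoxA gene of the anterior body (chromosome 6, 52141549 to 52142425), with folds of 4.83 and 3.55 in replicates 1 and 2. It lay in an intron of a long Hoxa3 transcript. The replicate peaks were 297 and 658 bp wide, and the region of 877 bp they formed was shorter than 6 of the 7 regions in the flanks. Hoxa7 had a peak of 269 bp in replicate 1 alone, with a fold of 2.46. H3K27ac covered 0.117% and 0.136% of the cluster spans in replicates 1 and 2, beside 2.41% and 0.987% of the genome. The HoxB, HoxC and HoxD clusters had no H3K27ac peak inside in either library. From a Hox TSS the median distance to the nearest shared H3K27ac region was 106077 bp, against 13608 bp for all genes. The HoxC genes were the farthest away: Hoxc10, a gene of the lumbar region and hindlimb, was 244613 bp from such a region.

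**Figure D1:**
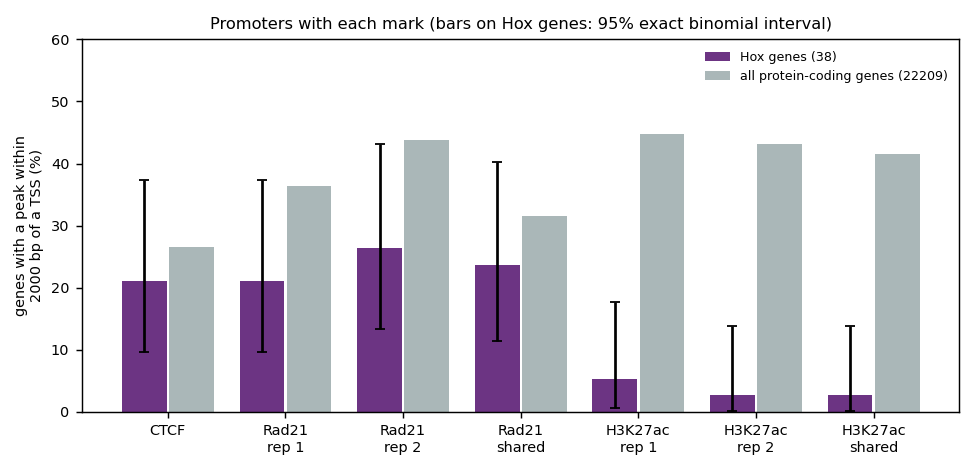
Percentage of the 38 Hox genes (left bar of each pair, with 95% exact binomial interval) and of all 22209 protein-coding genes (right bar) with a peak within 2000 bp of a TSS, for each library and for shared regions. The Hox bars for H3K27ac stand at 5.26%, 2.63% and 2.63%, against 44.8%, 43.1% and 41.6% of all genes, while for CTCF the intervals of the Hox genes include the share of all genes.

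For CTCF the interval of the Hox share included the share of all genes. A CTCF peak lay at 8 of 38 Hox promoters (21.1%, interval 9.55 to 37.3), where 26.5% of all genes had one. Shared Rad21 regions lay at 9 (23.7%, interval 11.4 to 40.2), where 31.6% of all genes had one. The Rad21 libraries alone gave 8 genes in replicate 1 (21.1%, interval 9.55 to 37.3) and 10 in replicate 2 (26.3%, interval 13.4 to 43.1), beside 36.4% and 43.7% of all genes, the last of which lies above the interval. The 8 genes with CTCF were reached by 7 distinct peaks, because the TSSs of Hoxa6 and of a long Hoxa3 transcript lie on either side of the same peak. At 8 Hox promoters (21.1%, interval 9.55 to 37.3) CTCF and shared Rad21 occurred without shared H3K27ac, where 5.22% of all genes had that combination. Among all genes with both CTCF and shared Rad21 at the promoter, 74.2% also had shared H3K27ac, and among the 8 Hox genes 0 did (interval 0 to 36.9%). Of the Hox genes 28 (73.7%) had none of the 3 marks, against 49% of all genes.

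In the HoxA cluster (chromosome 6, 52112350 to 52210874, minus strand) 4 genes carried CTCF and Rad21. Hoxa7, used in blood progenitors, had a CTCF fold of 14.0 and Rad21 at folds of 39.8 and 60.3 in replicates 1 and 2. The peak summit lay 42 bp from a TSS, in an exonic UTR. It was the strongest Rad21 site at any Hox promoter in both replicates. A second, weaker Rad21 peak (fold 4.30) was called there in replicate 2 only. Hoxa10, a regulator of progenitors and of the uterus, had a high CTCF peak, at a fold of 17.7, and low Rad21 peaks, at 8.10 and 7.61. Hoxa6 and Hoxa3 shared the highest CTCF peak in all Hox windows (fold 22.7), with Rad21 folds of 24.3 and 15.8. Its summit was 366 bp from a Hoxa6 TSS and 1345 bp from a TSS of a Hoxa3 transcript that starts far upstream of the Hoxa3 coding region. Hoxa3 is known for its part in forming the thymus itself, in the pharyngeal pouches. A second Rad21 peak within 2000 bp of both genes, in a coding exon of Hoxa3, was called in replicate 2 only, with a fold of 6.03. Hoxa2, Hoxa5, Hoxa9, Hoxa11 and Hoxa13 had no peak of any library at the promoter.

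In the HoxB cluster (chromosome 11, 96055630 to 96229570, plus strand) only Hoxb5 had any peak at the promoter. Hoxb5 is known as a gene of long-term blood stem cells, and its CTCF fold was 13.7 and its Rad21 folds 24.5 and 28.1. The summit lay 655 bp from the TSS in an exonic UTR. The other 9 genes, among them Hoxb4, which expands blood stem cells when overexpressed, had no promoter peak in any of the 5 libraries. In the HoxC cluster (chromosome 15, 102751534 to 102867274, plus strand) CTCF at Hoxc10 reached a fold of 7.95, and Rad21 reached 16.2 and 10.5. Hoxc5, which lies further towards the head end, had CTCF at 3.86 and Rad21 at 6.19 and 10.5. The CTCF summits lay 206 and 108 bp from the TSSs of Hoxc10 and Hoxc5, in sequence annotated as intergenic. The other 7 HoxC genes had no peak at the promoter.

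In the HoxD cluster (chromosome 2, 74506367 to 74603200, plus strand) Hoxd12, a limb and digit gene, had CTCF at 3.41 and Rad21 at 18.97 and 13.5. That CTCF peak was among those with q above 0.05, while Rad21 was above the median of all shared regions in both replicates. Beside shared regions on CTCF (medians 12.8 and 15.05), Rad21 there was above the median in replicate 1 only. Hoxd8 was counted for Rad21 alone. Its region (folds 31.7 and 42.9) came within 1880 bp of a TSS through the replicate 2 peak, and the CTCF summit under it was 2208 bp away, just outside the limit. Replicate 2 alone had a further Rad21 peak in an intron of Hoxd8, with a fold of 5.27. Hoxd3 had a Rad21 peak in replicate 2 only, with a fold of 4.52. Of the genes just outside the limit, Hoxb6 had a CTCF summit at 2223 bp and Hoxb8 a Rad21 region at 2780 bp. On the inner side Hoxd12 had its CTCF summit at 1782 bp. Hoxd1, Hoxd4, Hoxd9, Hoxd10, Hoxd11 and Hoxd13 had no peak at the promoter.

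**Figure D2:**
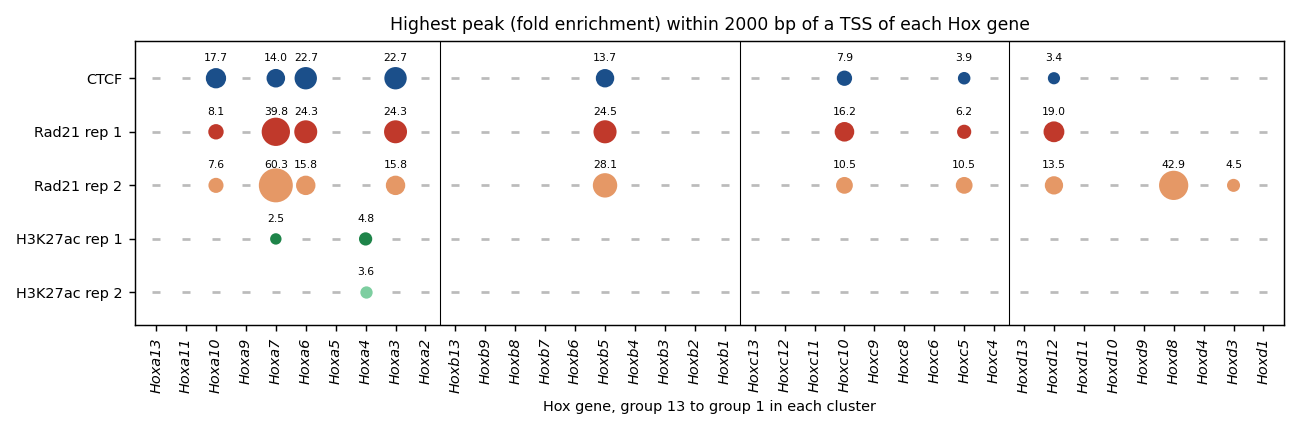
Fold enrichment of the highest peak within 2000 bp of a TSS for each of the 38 Hox genes (x axis, group 13 to group 1 within each cluster) in each of the 5 libraries (rows). Circle area grows with the fold, which is printed above it, and a dash means no peak. Hoxa7 has the largest Rad21 circle in both replicates (39.8 and 60.3), and Hoxa4 is the only gene with H3K27ac in both libraries.

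Seen along the clusters rather than gene by gene, CTCF and Rad21 were denser than in the genome as a whole. Inside the clusters there were 4.95 CTCF peaks per 100 kb, against 1.75 in the flanks and 1.34 over the genome. Shared Rad21 regions stood at 3.09 per 100 kb inside, 1.63 in the flanks and 1.17 over the genome. H3K27ac went the other way, with 0.206 shared regions per 100 kb inside, 0.875 in the flanks and 0.615 over the genome. By cluster, CTCF peaks per 100 kb inside were 4.06 for HoxA, 6.32 for HoxB, 2.59 for HoxC and 6.20 for HoxD. Shared Rad21 varied less, at 4.06, 2.87, 2.59 and 3.10. Hox clusters are also dense in genes, and densities were not adjusted for that.

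Within the clusters the sites were placed unevenly. The stretch from the coding region of the group 4 gene to the lowest group present covered 119 kb with 11 genes in the 4 clusters together. It held 1 CTCF peak and no shared Rad21 region. The remaining 366 kb with 27 genes held 23 CTCF peaks and 15 shared Rad21 regions. Low-numbered genes reach into it through long transcripts. It included the site at the upstream Hoxa3 TSS (CTCF fold 22.7) and the site in a Hoxd3 intron (CTCF 8.69, Rad21 29.0 and 24.0). The 1 CTCF peak of the low-numbered stretch lay between Hoxd3 and Hoxd1 (fold 2.88, q above 0.05, no motif). This division was chosen after the positions were seen. Hoxb2 and Hoxb1 were 39899 and 41667 bp from the nearest CTCF summit, and Hoxa2 46309 bp. Posterior genes could be as remote: Hoxc13 lay 45487 bp away.

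Recurring positions were seen across the clusters. A CTCF peak with shared Rad21 lay between group 9 and the next lower gene in all 4 clusters. Between Hoxa7 and Hoxa9 the CTCF fold was 14.0, with Rad21 at 39.8 and 60.3. Between Hoxb9 and Hoxb8 it was 8.43, with Rad21 at 26.8 and 28.1. HoxC had a CTCF fold of 10.5 between Hoxc9 and Hoxc8, with Rad21 at 15.5 and 18.1. Between Hoxd9 and Hoxd8 the CTCF fold was 12.1, with Rad21 at 31.7 and 42.9. These 4 sites were above the median of all CTCF peaks and of all shared Rad21 regions in both replicates. HoxB and HoxC also had a site between groups 5 and 6, with CTCF folds of 13.7 and 3.86, while the interval between Hoxa5 and Hoxa6 had none and HoxA had its site between Hoxa6 and Hoxa7. Sites between groups 10 and 11 occurred with Rad21 in HoxA (CTCF fold 17.7) and HoxC (7.95), and HoxD had a CTCF peak there (3.33) with Rad21 in replicate 1 alone. These recurrences were picked out after the positions were seen.

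**Figure D3:**
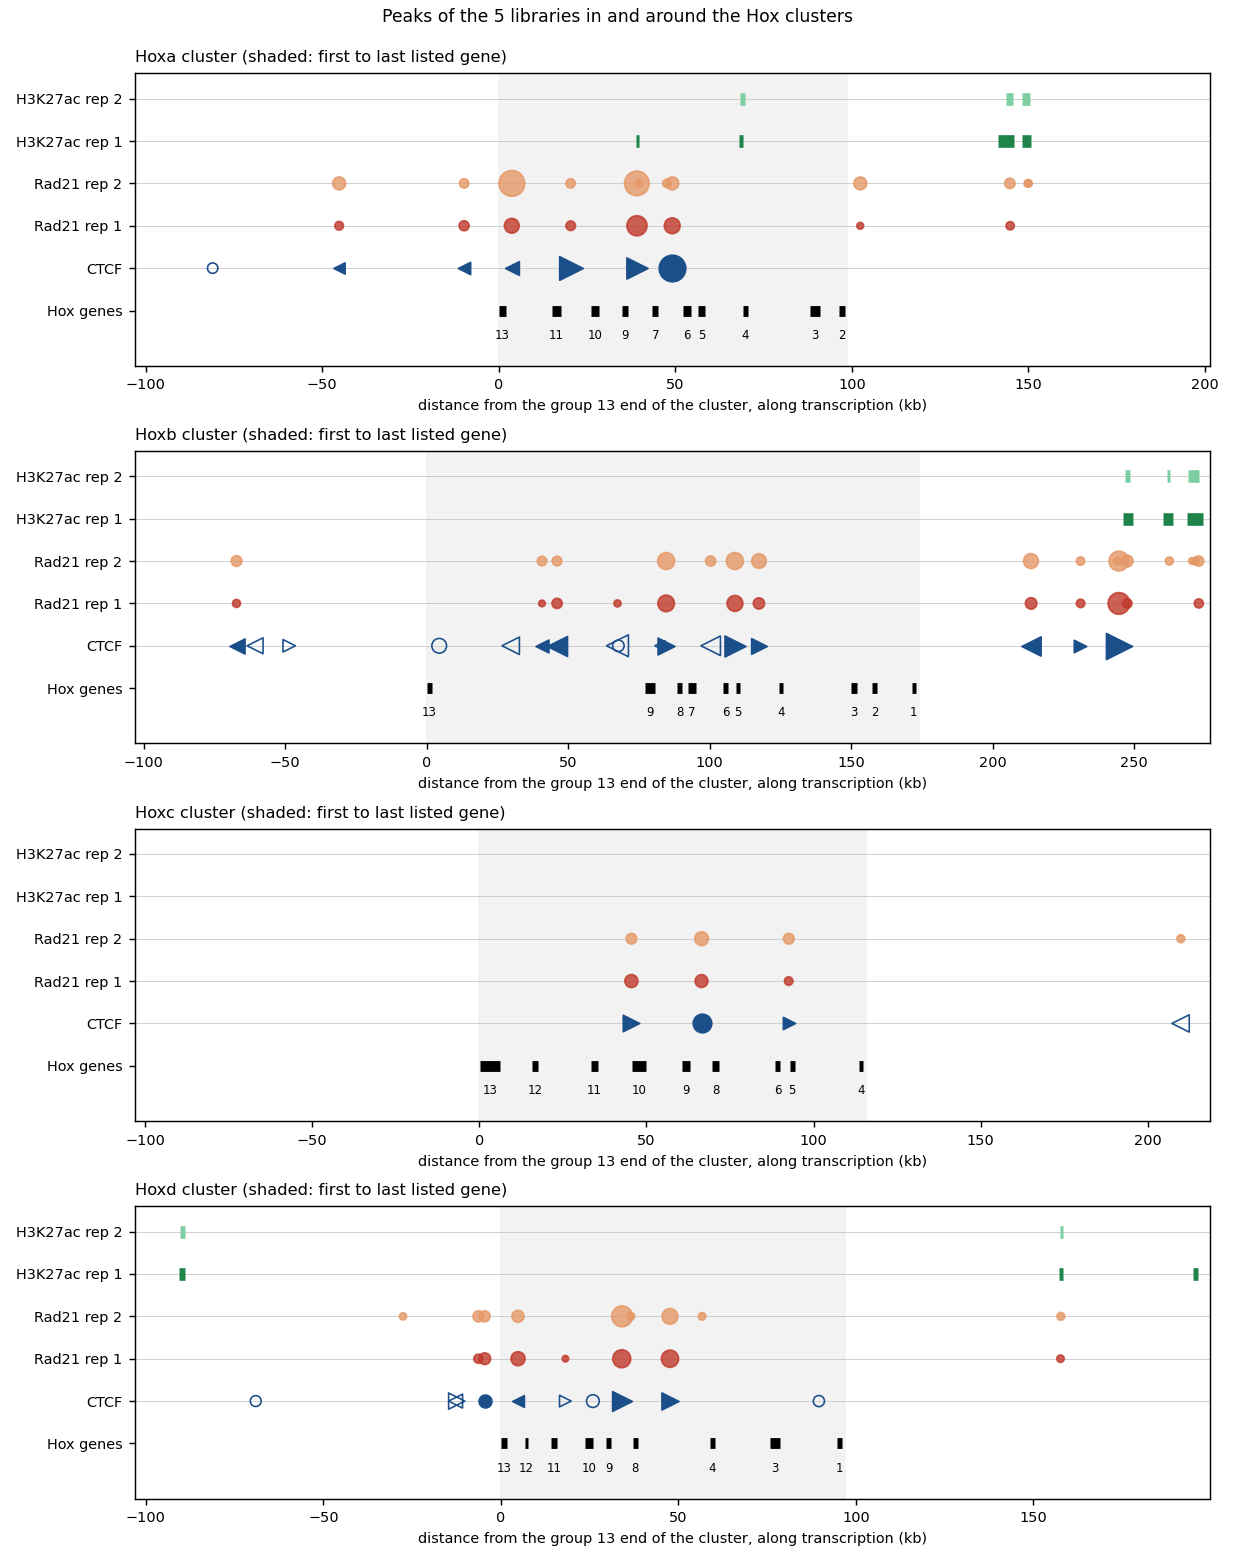
Peaks of each library in the 4 Hox clusters (shaded) and the 100 kb on either side, against distance in kb from the group 13 end along the direction of transcription. Black bars are coding regions of the Hox genes with their group number, marker size grows with fold for CTCF and Rad21, and green bars are H3K27ac peaks to scale with a small margin. CTCF triangles point right where the motif lies on the strand of the Hox genes and left where it lies on the other, circles have no motif, and filled CTCF markers hold a shared Rad21 region; filled CTCF markers inside the clusters stop before the coding region of the group 4 gene, and H3K27ac lies mostly in the flanks.

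Cohesin inside the clusters was confined, among shared regions, to CTCF peaks. All 15 shared Rad21 regions inside were on a CTCF peak (interval 78.2 to 100%), against 7 of 13 in the flanks and 65.9% of all 30959 shared regions. With −log10 q of at least 5 in both lists it was 12 of 14. With replicate 1 alone 17 of 17 peaks inside were on CTCF, and with replicate 2 alone 16 of 20. Over whole windows the share was 22 of 28 (78.6%, interval 59.0 to 91.7), and 15 of 25 (60%) with the stricter q. With replicate 1 alone it was 24 of 30 over whole windows, and with replicate 2 alone 24 of 41. No share of all regions stands beside the stricter or single-replicate counts, so these were not compared with the genome. In the other direction, 22 of 38 CTCF peaks in the windows held a shared Rad21 region (57.9%, interval 40.8 to 73.7), beside 58.2% of all CTCF peaks. Rad21 regions on shared H3K27ac numbered 4 of 28 in the windows (14.3%, interval 4.03 to 32.7), beside 36.9% of all regions, and all 4 were in the flanks.

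The CTCF peaks inside that lacked shared Rad21 were 9 of 24. The share with it was 62.5% (interval 40.6 to 81.2), beside 58.2% of all CTCF peaks. The median CTCF fold of the 9 was 4.21, against 8.69 for the 15 with Rad21. Of the 9, 4 had q above 0.05 against 1 of the 15. Folds and q were not compared between all CTCF peaks with and without shared Rad21. Whether these differences are particular to the clusters was therefore not tested. There were exceptions at high folds. The CTCF peak over Gm53, between Hoxb13 and Hoxb9 (fold 15.03, summit in a coding exon of that gene), had Rad21 in replicate 1 only, at 3.90. The peak in an intron of Hoxb6 (fold 11.6) had Rad21 in replicate 2 only, at 9.37. A peak at a fold of 9.01 in the gap between Hoxb13 and Hoxb9 had none in either replicate.

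Heights of CTCF and Rad21 did not keep the same order along a cluster. In HoxA the CTCF folds were 22.7 between Hoxa6 and Hoxa7, 14.0 at Hoxa7, 17.7 at Hoxa10 and 5.14 between Hoxa11 and Hoxa13. At the same 4 sites Rad21 folds were 24.3, 39.8, 8.10 and 21.0 in replicate 1, and 15.8, 60.3, 7.61 and 66.3 in replicate 2. The site below Hoxa13, a gene of the hand and genital region, thus had the lowest CTCF peak of the 4 and the highest Rad21 peak in replicate 2. In that library it was higher than 99.05% of shared regions, and in replicate 1 it was at the 82.5th percentile. Over the 15 regions inside, Spearman's rho between CTCF and Rad21 folds was 0.37 in replicate 1 and 0.09 in replicate 2, and between Rad21 replicates it was 0.81. Over all shared regions on CTCF rho was 0.49 and 0.36, and between replicates over all shared regions 0.77. These are descriptions, since the sites are not independent and the values come from the same libraries. Rad21 regions inside had median folds of 18.97 and 18.1, and all shared regions on CTCF had 12.8 and 15.05. Of the 15, 12 were above the median of all shared regions in replicate 1 and 10 in replicate 2. Those medians, 9.12 and 11.1, include regions off CTCF and are lower than the medians on CTCF. Since all 15 lie on CTCF, the counts do not show how they rank among regions on CTCF.

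**Figure D4:**
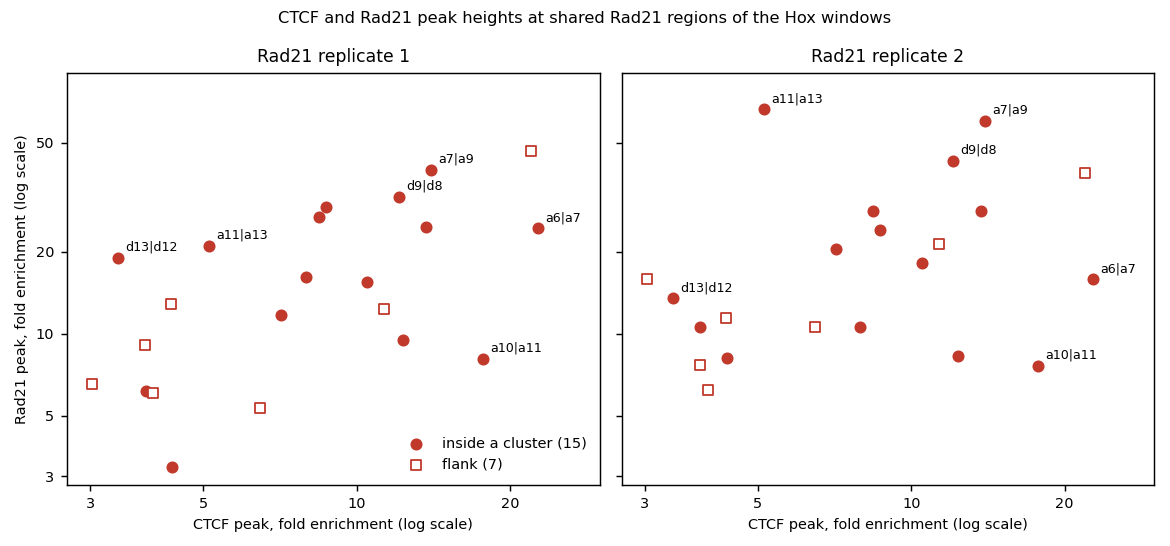
Fold enrichment of the CTCF peak (x axis) and of Rad21 (y axis, left panel replicate 1, right panel replicate 2) at the 22 shared Rad21 regions of the Hox windows that lie on CTCF; both axes are logarithmic. Filled circles are the 15 regions inside a cluster and open squares the 7 in the flanks. The site between Hoxa11 and Hoxa13 stands high for Rad21 at a CTCF fold of 5.14, and the Hoxa10 site stands low at 17.7.

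The CTCF motif was as frequent at Hox CTCF peaks as at all CTCF peaks when 2 mismatches were allowed, and less frequent when 1 was. The core CTCF consensus, 13 bases searched on both strands within 50 bp of the summit, was present with at most 2 mismatches at 29 of 38 peaks (76.3%, interval 59.8 to 88.6), beside 72.4% of all CTCF peaks. With at most 1 mismatch it was present at 12 of 38 (31.6%, interval 17.5 to 48.7), beside 51.8% of all. Inside the clusters, among peaks with shared Rad21, 13 of 15 had the motif with 2 mismatches allowed, beside 85.4% of all CTCF peaks with shared Rad21. Of those 15, 5 had it with 1 mismatch allowed (interval 11.8 to 61.6%), and the interval includes the 51.8% of all CTCF peaks. The share of all CTCF peaks with shared Rad21 at 1 mismatch is not given here. Among the 9 without shared Rad21, 5 had the motif, beside 54.1% of all such peaks.

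In HoxA, HoxB and HoxD the strand of the motif at Rad21 sites was ordered by position. Of the 13 motif-bearing peaks with shared Rad21 inside, 9 had the motif on the strand of Hox transcription and 4 on the other strand. The 4 on the other strand lay at the group 13 end: 1 between Hoxa11 and Hoxa13, 2 between Hoxb13 and Hoxb9 and 1 between Hoxd13 and Hoxd12. In each of these 3 clusters every motif on the Hox strand at a Rad21 site lay on the lower-numbered side of them, as the map of the clusters shows. HoxC had both its motifs on the Hox strand. Of the 5 motif-bearing CTCF peaks inside without shared Rad21, 4 had the motif on the other strand and 1, at Hoxd11, on the Hox strand. The peak in the Hoxb6 intron, on the other strand, broke the order, since it lay on the lower-numbered side of the Hox-strand motif between Hoxb9 and Hoxb8. The ordering was noticed after the strands were seen and was not tested.

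The flanks differed between clusters. HoxC had 1 CTCF peak there (fold 8.90), a Rad21 peak under it in replicate 2 only (5.31) and no H3K27ac. HoxB had the strongest flank site, in an intergenic stretch between Hoxb1 and Skap1 (chromosome 11, 96300130 to 96300403), where CTCF stood at 22.0 and Rad21 at 46.5 and 38.8. Skap1, which encodes an adaptor of T cell receptor signalling, carried shared H3K27ac at its promoter with folds of 2.098 and 4.10, in a region of 5086 bp. Further shared regions of 2681 and 2883 bp lay between that site and Skap1. In the HoxD flanks H3K27ac was at the promoters of the neighbours Lnp, which shapes the endoplasmic reticulum (folds 6.57 and 3.27), and Mtx2, of the mitochondrial outer membrane (6.71 and 5.49), where Rad21 was present without CTCF at 4.46 and 5.05. The 2 CTCF peaks in coding exons of Evx2 (folds 5.32 and 7.67) had motifs on opposite strands and no Rad21 peak in either replicate. Ttll6, which modifies tubulin, had CTCF at its promoter beside HoxB (7.37) with no Rad21 or H3K27ac. In the HoxA flanks the H3K27ac regions were intergenic, on the Hoxa2 side (1985 and 3821 bp), and all 3 CTCF peaks were on the Hoxa13 side.

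Genes of the Polycomb and Trithorax lists gave a different picture in H3K27ac from the clusters. The relatives of Hox genes had no called marks at the promoter. Of 7 Evx and ParaHox genes, among them Evx1, Evx2, Gsx1 and Gsx2, none had CTCF, shared Rad21 or shared H3K27ac there. Among all genes 49% have none. Of 10 TALE homeodomain cofactors, which bind DNA with Hox proteins, 3 had shared H3K27ac, 3 shared Rad21 and 4 CTCF. Among all genes the shares are 41.6%, 31.6% and 26.5%. Pbx2 had H3K27ac folds of 3.47 and 1.97 and Rad21 folds of 11.1 and 8.29. Pbx3 had H3K27ac (3.64) and Rad21 (4.46) in replicate 1 only. Of 15 Polycomb group genes 14 had shared H3K27ac and 11 shared Rad21, where 41.6% and 31.6% of all genes do. Ezh2, the histone methyltransferase of that system, had H3K27ac folds of 4.46 and 3.83. All 9 Trithorax and MLL genes had shared H3K27ac and 7 shared Rad21, among them Kmt2a, an activator of Hox genes, with H3K27ac folds of 4.31 and 4.28, Rad21 folds of 8.74 and 15.04 and a CTCF fold of 5.802.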

How the data were processed

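Peak lists, 1 per library, were used as the authors deposited them: narrow peaks for CTCF and Rad21 and broad peaks for H3K27ac, on build mm9 per the submitters' processing notes. These name MACS2 2.1.0 and Bowtie 1.0.0 for the series without saying for which step. Calling thresholds and controls are not stated in those notes or in the files. The fold enrichment, a ratio over local background, and the −log10 p and −log10 q values are as deposited by the authors. The deposited score, a multiple of −log10 q or −log10 p, was not used, and the summit is the deposited distance from the peak start. The CTCF list reaches down to a −log10 q of 0, and 29.1% of its peaks have q above 0.05.

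Only autosomes and X entered, and a coordinate listed more than once was counted once, at its highest fold. Overlap meant at least 1 bp. Genes and TSSs of all transcripts came from GENCODE vM1 on NCBIM37, the assembly of mm9, with models of the same symbol joined. Coding regions gave the intervals between genes. Counts and intervals used Python 3.11.15, pandas 2.3.3 and scipy 1.17.1, and the overlap and motif searches were tested on simulated data. The Hox genes, lists and windows were chosen with earlier results of these data known. Named are all Hox genes, genes with a TSS in a window, up to 4 genes per list, and the highest CTCF peaks, beside sites picked after their values were seen. The 10 alternative settings left out each Rad21 or H3K27ac replicate or changed the threshold, the overlap, the promoter, the flanks or the mismatches. Single values of some listed genes are not reported here.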

Additional observations from a re-analysis of the deposited data

How the results depend on the processing

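Of 36 recomputed values, 29 stayed within 1.5 times the count or within the binomial interval of the reported share. Within 500 bp of a TSS, 5 Hox genes had CTCF (8 within 2000 bp). Leaving out a H3K27ac replicate gave 1 or 2 Hox genes with H3K27ac and 1 or 2 regions inside the clusters, the second being the replicate 1 peak at Hoxa7. Leaving out a Rad21 replicate gave 58.5% or 80.0% of Rad21 peaks in the windows on CTCF, and the cause was not tested. Without flanks 100% of shared Rad21 regions were on CTCF and 0% on H3K27ac, by the choice of stretch. At most 1 mismatch left the motif at 31.6% of CTCF peaks. No paired analysis was possible because the results come from no test between groups. Depth is unknown, so weak peaks below the authors' threshold could not be seen.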
